A study of Sus scrofa with 12 samples.

Results

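The genes described here encode the enzymes that make, acetylate and oxidise polyamines and the proteins that control the first of these enzymes. Of the 10 symbols listed for this group, 8 had a row with counts among the 25880 genes of the count table, namely SAT1, SAT2, ODC1, SMS, SMOX, OAZ1, OAZ2 and AZIN1, and all 8 passed the filter on low counts. AMD1 and SRM were not analysed here. SAT1 was chosen by its normalized counts, which differed between the groups in earlier analyses of these same pigs, so its group difference is described without a test. The other 7 members were listed for their place in the pathway.

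The data are gene counts from RNA sequencing of the Semimembranosus muscle, a muscle of the ham, of 12 purebred Italian Large White heavy pigs, which were housed alike, ate one diet and carried no experimental treatment. The high IMF group had 6 pigs with much intramuscular fat (IMF, the fat lying within the muscle) and the low IMF group had 6 pigs with little of it, and each group held 3 females and 3 castrated males per the labels. The pigs were 234 to 244 days old in the high IMF group and 229 to 249 days old in the low IMF group. The pigs were not sibs, the groups were the extremes of a larger population, and the muscle was taken after slaughter.

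Polyamines (putrescine, spermidine and spermine) are small, positively charged molecules that bind nucleic acids and are needed for growth and for translation. ODC1 makes putrescine from ornithine, and spermidine synthase (SRM) and spermine synthase (SMS) add aminopropyl groups that AMD1 provides. SAT1 acetylates spermidine and spermine, which marks them for export or for oxidation, while SMOX oxidises spermine directly. Antizymes (OAZ1 and OAZ2) bind ODC1 and send it to the proteasome, and the antizyme inhibitor AZIN1 binds the antizymes in its place. SAT1 and the antizymes are both known to rise when cells hold more polyamine, largely through control of translation and protein stability, which gene counts do not measure.

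Stretches of coding sequence from RefSeq genes on Sscrofa11.1 show how the paralogues in this group differ and how antizyme is read. SAT1 (ENSSSCG00000012173, chrX:19908037-19910553, plus strand) and SAT2 (ENSSSCG00000017952, chr12:52911725-52913314, minus strand) had 55.9% identical bases over their aligned coding sequences, and their longest shared run was 9 bases, printed in capitals. Both stretches run across an exon junction, so the genomic spans are longer than the 57 bases printed.
SAT1, chrX:19908374-19908525, plus strand: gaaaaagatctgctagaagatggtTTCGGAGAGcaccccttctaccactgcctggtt
SAT2, chr12:52912635-52912823, minus strand: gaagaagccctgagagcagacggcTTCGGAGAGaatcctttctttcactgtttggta
The ribosome has to slip forward by 1 base to read an antizyme messenger to its end, and the windows below hold that place, with the last codon before the shift, the stop codon and the next base in capitals.
OAZ1, chr2:76294892-76294936, minus strand: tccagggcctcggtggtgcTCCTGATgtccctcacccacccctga
OAZ2, chr1:107335586-107335630, plus strand: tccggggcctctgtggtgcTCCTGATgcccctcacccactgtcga
The OAZ1 (ENSSSCG00000013460) and OAZ2 (ENSSSCG00000004550) windows were identical at 38 of 45 bases, against 64.3% over the whole aligned coding sequences. No member's longest transcript matched another place in the genome at 98% identity or more over at least 100 bases. SMOX (ENSSSCG00000007140, chr17:31552927-31592007, minus strand) overlaps another RefSeq gene on the opposite strand, and its counts are uncertain where the counting did not use strand.

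The libraries held 131048805 to 178013997 counts each, and the raw counts of SAT1 ran from 873 to 7294 per pig. Counting error alone (the coefficient of variation of a Poisson count) was 0.454% to 3.38% in 6 of the members. It was larger for SAT2, at 84 to 299 counts with 5.78% to 10.9%, and for SMOX, at 166 to 313 counts with 5.65% to 7.76%. For each pig, the authors list fewer input reads than the counts held by its library. The counts were therefore not all independent, and these values understate the counting error. Counts of the Y chromosome genes EIF1AY and KDM5D went against the labelled sex in 6 of the 12 pigs, 2 of the high IMF and 4 of the low IMF group. Each group held 3 pigs with Y chromosome counts, 3734 to 5601 in sum, and 3 pigs without, 0 to 6 in sum. The IMF labels came with the same libraries and cannot be checked from the counts, and whether libraries or sex labels were exchanged was not tested. The group differences and the correlations with SAT1 are also given for the 6 pigs that fitted their label. An exchanged library or label can fit the sex by chance, so the fit does not show that these pigs carry the right IMF label.

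Levels were compared between genes as CPM (counts scaled to a library total of 1000000) per kb of the longest RefSeq transcript, averaged over the 12 pigs. OAZ1 was highest, at 181 ± 23.4 (SD, n = 12), and its lowest pig lay above the highest pig of every other member. OAZ2 followed at 52.8 ± 7.04 and SAT1 at 43.1 ± 26.0, and OAZ2 was above SAT1 in 9 of the 12 pigs (11 per kb of coding sequence), so their order differed between pigs.

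ODC1 (14.3 ± 4.23), SMS (13.4 ± 3.51) and AZIN1 (13.4 ± 2.80) did not differ beyond their spread, since ODC1 was above SMS in 7 pigs and SMS above AZIN1 in 5. SAT2 (1.41 ± 0.440) and SMOX (0.698 ± 0.100) were the lowest, with SAT2 above SMOX in all 12 pigs although their ranges overlapped. SAT1 was above ODC1 in all 12 pigs on this scale, and in 11 pigs per kb of coding sequence. This order rests on the RefSeq lengths, while the counts were made per Ensembl gene, whose lengths were not used. In normalized counts without a length, ODC1 had a mean of 5111 in high and 4140 in low IMF. The means of SAT1 were 5220 and 2038. The SAT1 model holds 568 bases, of which 516 are coding, while the AZIN1 model holds 4459 bases with 1341 coding. Per kb of coding sequence SAT1 stood at 47.5 and AZIN1 at 44.4, and AZIN1 moved from place 6 to place 4.

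**Figure D1:**
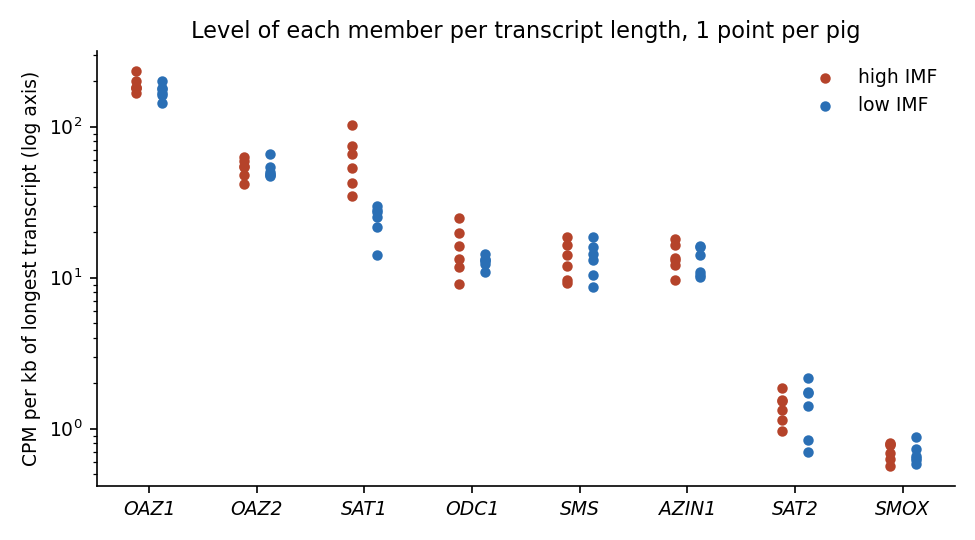
Level of each member in each pig, as CPM per kb of the longest RefSeq transcript on a log axis, with 1 point per pig in the high (red) and low (blue) IMF group. OAZ1 lies above all others with a mean of 181, SAT1 is the member whose groups stand apart, and SAT2 and SMOX lie lowest.

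Within the pigs' own order of levels, SAT1 held place 2 or 3 of 8 in each high IMF pig, and place 3 in the low IMF pigs except pig 7, where it held place 4. On counts normalized by TMM (a scaling that evens out library composition), the scale used from here on, SAT1 had 2912 in its lowest, 5016 in its median and 8566 in its highest high IMF pig. In the low IMF group the lowest pig had 1192, the median 2196 and the highest 2492. The groups did not overlap, with the high IMF pigs above, which is the difference SAT1 was chosen for. Over all 14262 genes, 0.4% had groups that did not overlap with high IMF above and 0.259% with low IMF above.

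The group means of SAT1 were 5220 ± 2050 and 2038 ± 475 (SD, n = 6 each), a log2FC (low over high IMF) of -1.36 with an SE of 0.25, or 2.56-fold higher in high IMF. In the 6 pigs whose Y chromosome counts fitted the labelled sex, 4 high and 2 low IMF, the log2FC was -1.33 with an SE of 0.40. SAT1 also varied within the groups, by a coefficient of variation of 39.3% in high IMF and 23.3% in low IMF. Its spread within groups stood at percentile 71.0 of all genes on the log2 scale. In whole muscle, fewer cells of a type and less RNA per cell cannot be told apart.

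Genes of the immediate early and stress response had a higher median sum in the same group as SAT1. Their summed level was 1358 to 2722 CPM in high IMF and 1148 to 2010 in low IMF, with medians of 2054 and 1467. Of the 15 such genes tested, 7 were higher in high IMF and 1 in low IMF with an unadjusted edgeR p of 0.05 or less, and none passed after adjustment. Over all genes these shares were 5.04% and 5.39%. The list was chosen with earlier results of these pigs known, so it is no independent set to hold against these shares. The part of these genes in the SAT1 difference was not tested.

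SAT2, the paralogue of SAT1, showed no such separation. It had 131, 194 and 254 normalized counts in the lowest, median and highest high IMF pig, and 95.5, 213 and 295 in low IMF. Its 2 lowest low IMF pigs, 11 and 7, lay below the whole high IMF group and pig 8 above it, and the log2FC was 0.04 with a 95% interval of -0.55 to 0.63. The interval is wide and excludes a difference of the size SAT1 had.

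**Figure D2:**
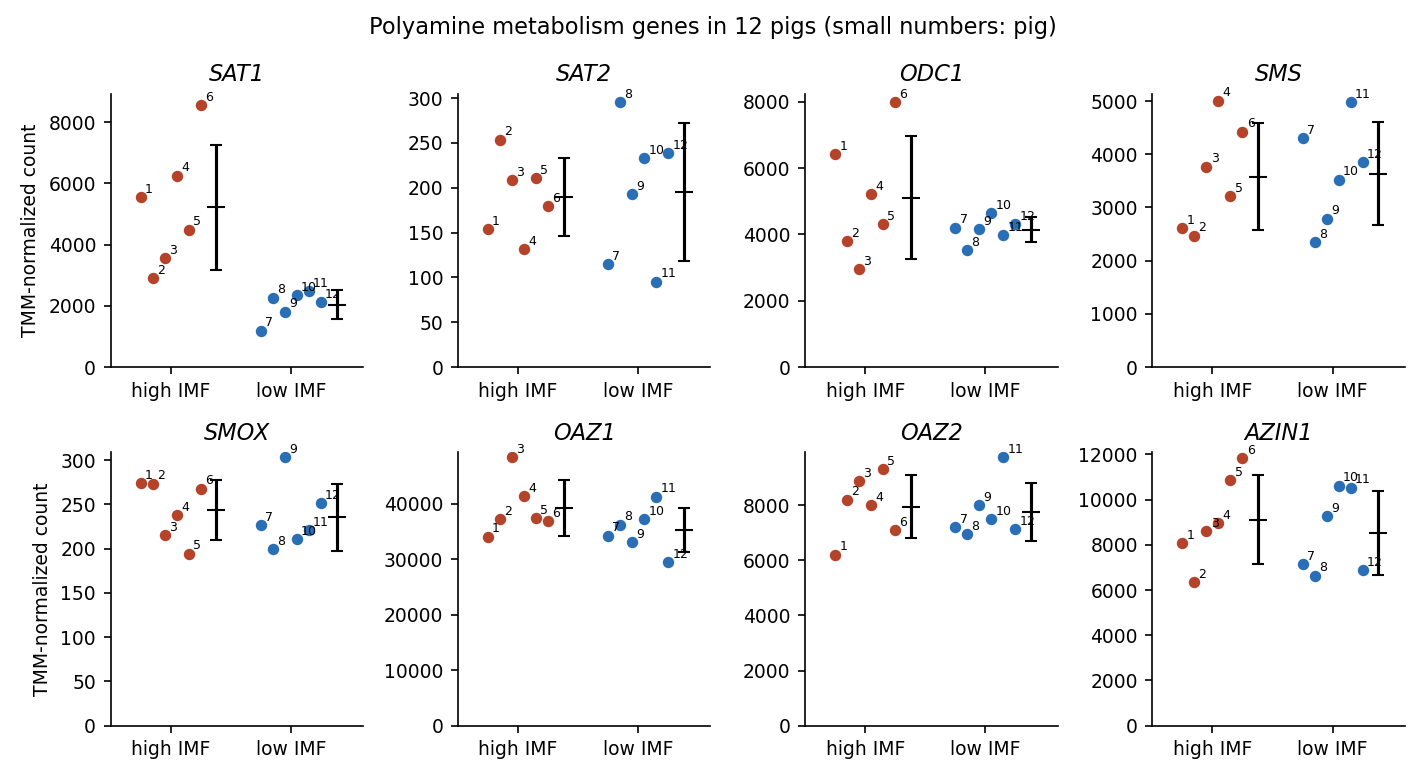
TMM-normalized counts of the 8 members in each pig (points, numbered by pig) with the mean and SD of each group of 6 (black bars), each panel on its own axis from 0. The groups overlap in every panel except SAT1, where the lowest high IMF pig had 2912 and the highest low IMF pig 2492.

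The 7 members other than SAT1 were tested between the groups, and none passed. The quasi-likelihood test of edgeR called 0 of the 7 (adjusted p of 0.05 or less, log2FC of 0.58 or more in size), 0 passed an unadjusted p of 0.05, and none separated the groups. Over all 14262 genes the called share was 0%, 10.4% passed an unadjusted p of 0.05 and 0.659% had groups that did not overlap. DESeq2's Wald test on all genes called 0.39% of genes and again 0 of the 7 members. The median log2FC of the 7 was -0.05, against -0.01 over all genes.

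Among the synthesis genes, ODC1 (ENSSSCG00000027121, chr3:126087013-126095644, plus strand), the rate-limiting enzyme, had 2947, 4755 and 7996 normalized counts in the lowest, median and highest high IMF pig. In low IMF the same values were 3517, 4189 and 4635. The low IMF pigs lay close together inside the range of the high IMF pigs, of which pigs 1, 4 and 6 were above and pig 3 below all low IMF pigs.

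The coefficient of variation of ODC1 was 36.2% in high IMF and 8.98% in low IMF, a difference in spread that was not tested. The log2FC of ODC1 was -0.30 with an SE of 0.20 (adjusted p = 0.618, edgeR). With each pig left out the log2FC ran from -0.42 without pig 3 (unadjusted p = 0.0288, adjusted p = 0.576, edgeR) to -0.13 without pig 6 (unadjusted p = 0.445, adjusted p = 0.888, edgeR).

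SMS (ENSSSCG00000012166, chrX:18118332-18169396, plus strand), which makes spermine from spermidine, covered nearly the same range in both groups. Its lowest, median and highest values were 2472, 3489 and 5008 in high IMF and 2343, 3691 and 4985 in low IMF. The log2FC was 0.02 with a 95% interval of -0.43 to 0.47. SMS lies 1.74 Mb before SAT1 on the X chromosome, and the log2FC of SAT1 was -1.36. The difference between these values was not tested.

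SMOX, the spermine oxidase, stood at 244 ± 33.7 normalized counts in high and 236 ± 37.7 in low IMF (SD, n = 6 each). SMOX had 194 to 274 normalized counts in high IMF with a median of 253, and 199 to 304 in low IMF with a median of 224. Both groups covered the same range, and the log2FC was -0.05 with a 95% interval of -0.37 to 0.27.

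The antizymes were abundant and steady. OAZ1 had 34127, 37337 and 48437 normalized counts in the lowest, median and highest high IMF pig and 29587, 35292 and 41335 in low IMF, with pigs 3 and 4 above and pigs 9 and 12 below the other group. Its log2FC was -0.15 with an SE of 0.11 (adjusted p = 0.648, edgeR), and its spread within groups stood at percentile 13.5 of all genes. OAZ2 had a median of 8110 in high IMF and 7351 in low IMF, with groups that overlapped and a log2FC of -0.04 (SE 0.12, adjusted p = 0.943, edgeR).

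AZIN1 (ENSSSCG00000023873, chr4:34221368-34257261, plus strand), the antizyme inhibitor, had 6361 to 11832 normalized counts in high IMF and 6642 to 10619 in low IMF. The low IMF pigs fell into a lower trio of 6642 to 7163 and an upper trio of 9264 to 10619. The log2FC was -0.10 with an SE of 0.17 (adjusted p = 0.878, edgeR). The 95% intervals of the log2FC ran from -0.73 to 0.12 for ODC1, from -0.38 to 0.08 for OAZ1, from -0.29 to 0.22 for OAZ2 and from -0.46 to 0.26 for AZIN1, with 6 pigs a group. In the 6 pigs that fitted their labelled sex, 4 high and 2 low IMF, the log2FC was -0.10 for SAT2, -0.49 for ODC1, 0.29 for SMS, -0.15 for SMOX, -0.07 for OAZ1, 0.20 for OAZ2 and -0.01 for AZIN1, and edgeR called none of them.

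**Figure D3:**
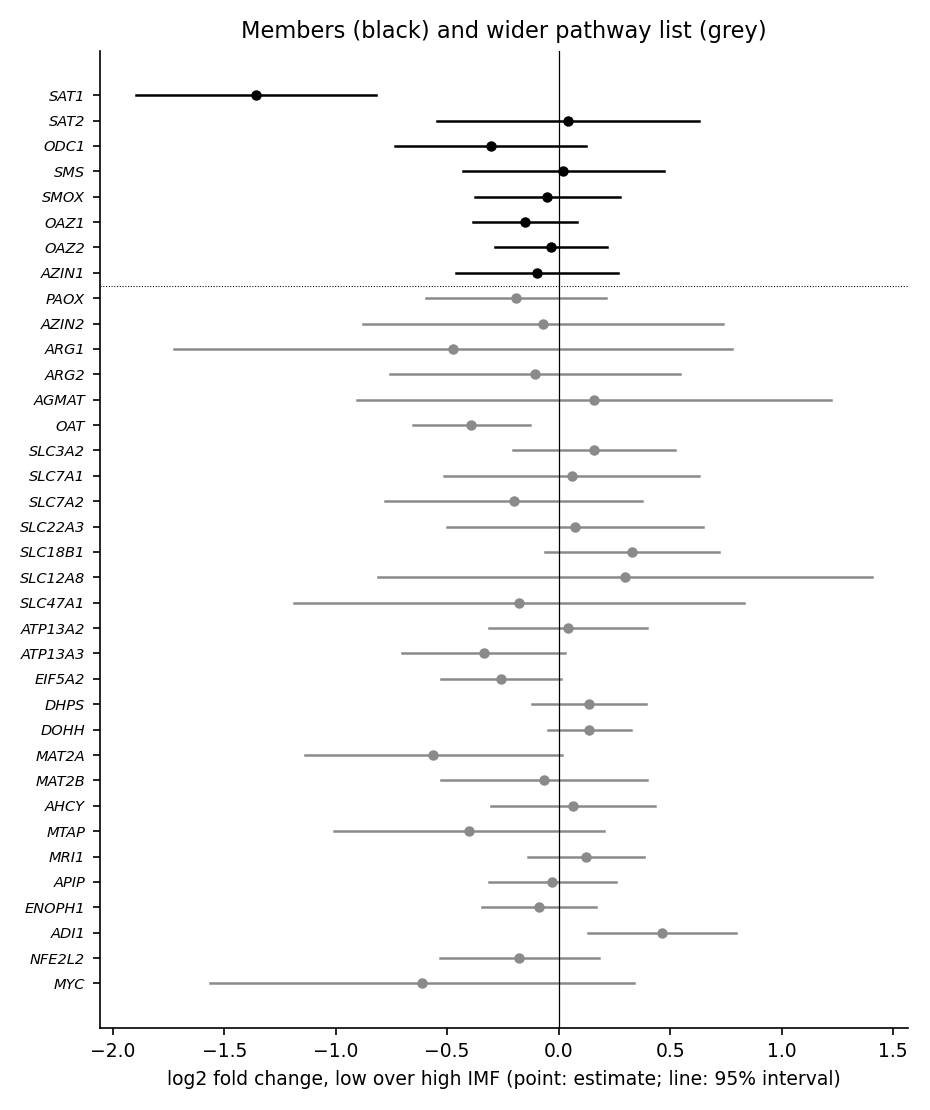
The log2FC (low over high IMF) of the 8 members in black and the 28 tested genes of the wider polyamine pathway list in grey, with 95% intervals from edgeR's quasi-likelihood fit. SAT1, listed for this difference, lies at -1.36, and the other members lie between -0.30 and 0.04.

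Whether the members moved together from pig to pig was asked of log2 CPM after the mean of each group was taken off, so that the difference between the groups could not make a correlation. ODC1 went with SAT1 most closely, with a Pearson r of 0.69 (exact permutation p = 0.0383, adjusted over all genes 0.577) and a Spearman rho of 0.62 (exact permutation p = 0.0785), n = 12 pigs. AZIN1 followed with an r of 0.59 (exact permutation p = 0.0592, adjusted 0.601) and a rho of 0.60 (exact permutation p = 0.0511). Neither passed after adjustment over the 14261 genes compared, of which 0% passed, 4.83% had a positive and 3.54% a negative r at an unadjusted p of 0.05 or less.

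In the high IMF pigs alone ODC1 had an r of 0.89 with SAT1 (exact permutation p = 0.0236, adjusted 0.715, n = 6) and a rho of 0.89. Pig 6 was the highest pig for both genes there, and pigs 2 and 3 were low for both. In the low IMF pigs, where ODC1 hardly varied, the r was -0.14 (exact permutation p = 0.739). The difference between these values was not tested. Without pigs 2 and 7, the pigs whose SAT1 lay farthest from the median, the r of ODC1 was 0.84 and that of AZIN1 0.32, and without pig 6 the r of ODC1 was 0.50 (exact permutation p = 0.175, n = 11).

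The other members had smaller r with SAT1. SMS had an r of 0.31 (exact permutation p = 0.346, n = 12), SMOX of 0.01 (exact permutation p = 0.974), OAZ1 of -0.04 (exact permutation p = 0.903), SAT2 of -0.11 (exact permutation p = 0.726) and OAZ2 of -0.21 (exact permutation p = 0.562). Their rho values were 0.48, -0.08, 0.15, -0.27 and -0.29, with exact permutation p from 0.148 to 0.834. Without pigs 2 and 7 their r were 0.38, 0.21, -0.23, -0.31 and -0.37. After adjustment over all genes the p-values of these 5 lay between 0.812 and 0.994. In the 6 pigs that fitted their labelled sex the r with SAT1 was 0.89 for ODC1, 0.87 for AZIN1, 0.75 for SMS, -0.34 for SMOX, 0.17 for OAZ1, -0.53 for SAT2 and -0.20 for OAZ2. None passed after adjustment over all genes. These pigs allow so few arrangements within groups that a pass was hardly possible, so nothing is read from this.

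**Figure D4:**
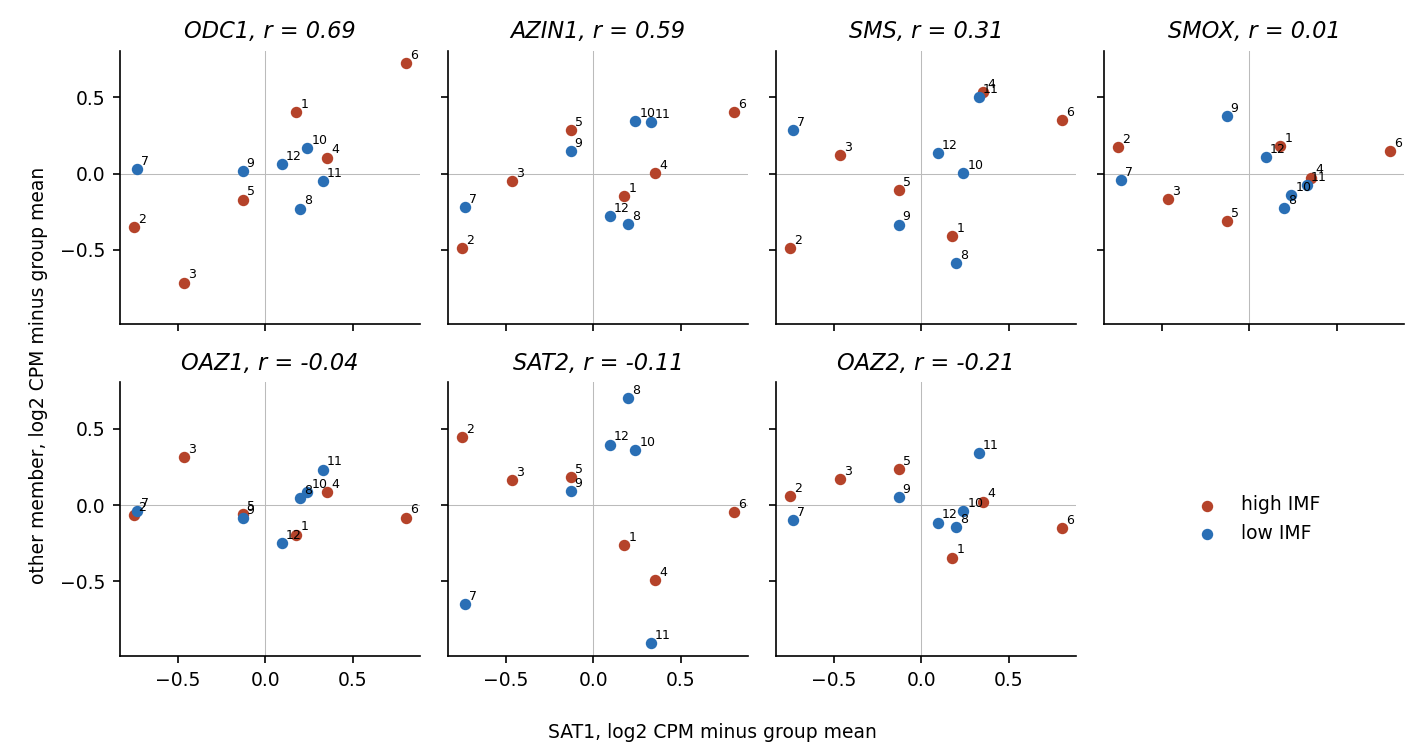
Deviation of each pig from its group mean (log2 CPM) for SAT1 on the x axis and for another member on the y axis, with red points for high and blue points for low IMF and the pig numbers beside them. The points of ODC1 (r = 0.69) and AZIN1 (r = 0.59) run upward, and those of the antizymes do not.

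For SAT1 against all genes, 4.83% had a positive and 3.54% a negative r at an unadjusted exact permutation p of 0.05 or less. Such shares were not taken for the other members. Among all 28 pairs of members, chosen for this look after the values were seen, 3 reached that p and 0 passed after adjustment over all genes. Beside SAT1 with ODC1, these were SAT2 with SMS, which moved oppositely (r = -0.69, rho = -0.69, exact permutation p = 0.0192, adjusted 0.917, n = 12), and OAZ1 with OAZ2, which moved together (r = 0.63, rho = 0.53, exact permutation p = 0.0434, adjusted 0.804, n = 12). Leaving out the 2 pigs farthest from the median of SAT2 or OAZ1 gave r of -0.50 and 0.34. ODC1 had an r of -0.53 with OAZ1 and -0.56 with OAZ2 (exact permutation p = 0.1 and 0.0889, n = 12).

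Of all genes with a symbol, those whose deviations were most like those of SAT1 were PSMD9, a proteasome assembly chaperone, with an r of 0.93, GMPR2, a guanosine monophosphate reductase, with 0.93, and CD101, a leukocyte surface protein, with 0.90. DESI1, SPTY2D1, PBDC1, NIP7, which takes part in ribosome biogenesis, the small nucleolar RNA SNORA74, HSP90B1, a chaperone of the endoplasmic reticulum, and CTH, which makes cysteine from cystathionine, followed with r from 0.884 to 0.867. The 5 most opposed genes were KHK, the fructose kinase, with an r of -0.93, TMEM94 with -0.90, and THYN1, UNC45A and EHD2 with -0.879 to -0.875. The rho of the 10 like genes lay between 0.67 and 0.92 and that of the 5 opposed genes between -0.90 and -0.81, and without pigs 2 and 7 the r lay between 0.71 and 0.87 and between -0.90 and -0.74. For these 15 genes r came from 12 pigs and their exact permutation p, adjusted over all genes, lay between 0.399 and 0.45. The highest and lowest of so many r values are extreme by the way they were chosen.

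Pigs with Y chromosome counts were also compared with pigs without, since SAT1 and SMS lie on the X chromosome. This comparison was chosen after the data were seen. In high IMF, SMS had 3768 to 5008 normalized counts in the 3 pigs with Y chromosome counts and 2472 to 3210 in the 3 without, whereas in low IMF the ranges of 2792 to 4985 and 2343 to 4296 overlapped. AZIN1 and OAZ2 did not overlap in low IMF, where AZIN1 had 9264 to 10619 against 6642 to 7163 and OAZ2 7500 to 9754 against 6966 to 7202, and both overlapped in high IMF. Over all 14262 genes, 15.5% did not overlap between the same 3 and 3 pigs in high IMF and 9.91% in low IMF, beside 1 and 2 of the 8 members.

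With the IMF group in the fit, the log2 difference of pigs with over pigs without Y chromosome counts was 0.39 for SMS (SE 0.19, unadjusted p = 0.0609), 0.39 for AZIN1 (SE 0.14, unadjusted p = 0.0141) and 0.38 for SAT1 (SE 0.23, unadjusted p = 0.128) by edgeR. Adjusted, these were 0.497, 0.419 and 0.584, and 0.133% of all genes passed. SAT1 overlapped between pigs with and without Y chromosome counts in both groups. With the presence of Y chromosome counts taken off as well, the r of SAT1 was 0.71 with ODC1, 0.45 with AZIN1, 0.11 with SMS, -0.41 with OAZ1 and -0.43 with OAZ2.

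**Figure D5:**
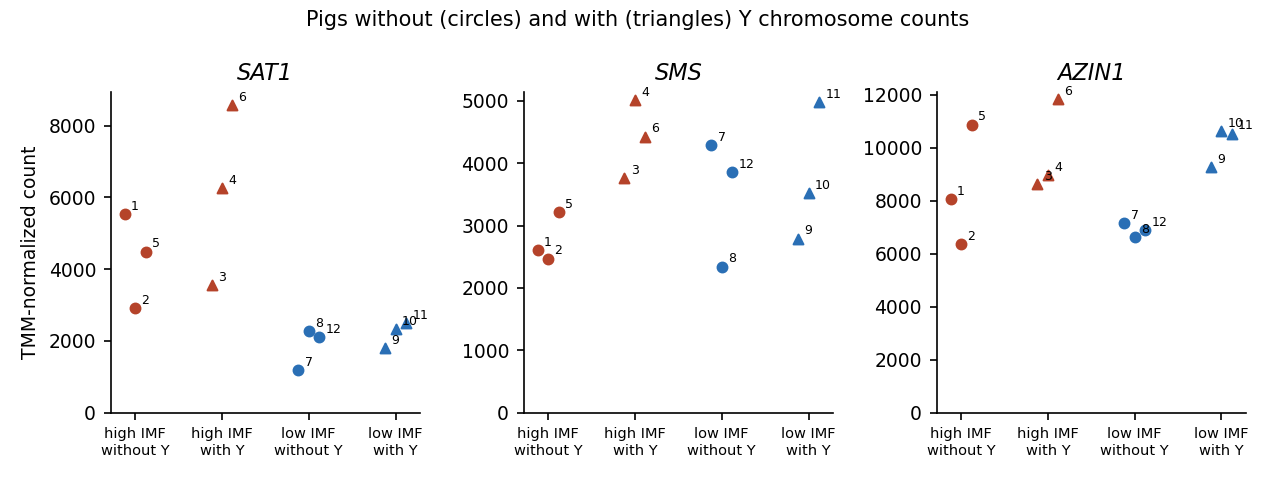
TMM-normalized counts of SAT1, SMS and AZIN1 in pigs without (circles) and with (triangles) counts of Y chromosome genes, within the high (red) and low (blue) IMF group, numbered by pig, 3 pigs per column. The columns of pigs with and without Y chromosome counts do not overlap for SMS in high IMF and for AZIN1 in low IMF, and they overlap for SAT1 in both groups.

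The wider pathway was described with a list of 36 genes that supply, carry, oxidise or use polyamines or recycle the methionine they need. Of these, 28 could be tested, 5 had too few counts, 1 had none and 2 were not analysed here. Of the 28, edgeR called 0. At an unadjusted p of 0.05 or less, 1 was higher in high IMF and 1 in low IMF, against 5.04% and 5.39% of all genes. The median log2FC was -0.07, against -0.01 over all genes. Nominally, 16 of the 28 were higher in high IMF, against 7360 of all 14262 genes.

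OAT, which turns ornithine to another use than ODC1 does, had 5373, 7367 and 8616 normalized counts in the lowest, median and highest high IMF pig and 4707, 5267 and 6060 in low IMF. Its log2FC was -0.39 with an SE of 0.12, an unadjusted p of 0.00639 and an adjusted p of 0.419 in edgeR. ADI1, a dioxygenase of the methionine salvage that recovers the by-product of spermidine and spermine synthesis, lay the other way. It had 2388, 2918 and 3836 normalized counts in high IMF and 2680, 4457 and 4827 in low IMF, with a log2FC of 0.46 (SE 0.15, unadjusted p = 0.00959, adjusted p = 0.425, edgeR). Both genes overlapped between the groups.

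Next in order on the high IMF side were MAT2A, which makes S-adenosylmethionine, with a log2FC of -0.56 (SE 0.27), EIF5A2, a translation factor that carries a residue made from spermidine, with -0.26 (SE 0.12), and ATP13A3, a polyamine transporter, with -0.34 (SE 0.17). On the low IMF side were SLC18B1, a vesicular polyamine transporter, with 0.33 (SE 0.18), and DOHH and DHPS, the enzymes that make this residue, hypusine, with 0.14 each (SE 0.09 and 0.12). The unadjusted p of these 6 genes lay between 0.0556 and 0.277 and none passed after adjustment in edgeR. In the deviations of the pigs, ATP13A3 had an r of 0.67 with SAT1 (rho = 0.50, exact permutation p = 0.0295, n = 12) and MAT2A of 0.52 (rho = 0.30, exact permutation p = 0.0805). ATP13A3 was the only 1 of the 28 genes at an unadjusted exact permutation p of 0.05 or less. Over all genes, 4.83% had a positive and 3.54% a negative r with SAT1 at that p. ATP13A3 did not pass after adjustment over all genes.

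Markers of the cells that a muscle sample holds were summed per pig to see what SAT1 moved with. Of 11 muscle fibre markers 5 had a row, and all 5 were abundant, with ACTA1, the skeletal muscle actin, at 2617400 ± 547280 normalized counts in high IMF and 3208600 ± 925250 in low IMF (SD, n = 6 each). Of 9 lists, the neutrophil markers (r = 0.75, exact permutation p = 0.00886, adjusted over the lists 0.0797) and the muscle fibre markers (r = -0.65, exact permutation p = 0.0186, adjusted 0.0839) had the largest r with SAT1, n = 12 pigs, and none passed after adjustment. Their rho values were 0.58 and -0.32, and without pigs 2 and 7 the r values were 0.76 and -0.08. With the mean of log2 CPM over the list in place of the sum, the r values were 0.70 and -0.37 (exact permutation p = 0.0249 and 0.184, n = 12). With each pig left out, the r of the neutrophil markers ran from 0.62 to 0.82 (n = 11). The lowest came without pig 6, with an adjusted exact permutation p of 0.275. The highest came without pig 4, with an adjusted exact permutation p of 0.0362.

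The neutrophil markers were close to 0 throughout, at 0.153 to 6.62 CPM in high IMF and 0.673 to 1.40 in low IMF, summed over the 3 of 7 that could be tested, CSF3R, S100A12 and S100A8, with MPO at 0 in every pig. Pig 6, the highest high IMF pig for SAT1, ODC1 and AZIN1, had the 6.62, and it also had 638 CPM of red blood cell markers, where the other pigs had 46.3 to 130. Without pig 6 the r with SAT1 was 0.50 for ODC1, 0.45 for AZIN1, 0.62 for neutrophil markers and -0.00102 for red blood cell markers. Without pig 2, it was 0.64 for ODC1 and 0.42 for AZIN1. The part of pig 6 in the correlations was not tested. The muscle fibre sum, led by ACTA1, CKM and TNNT3, ran from 32193 to 46249 in high IMF and from 33961 to 61776 in low IMF. The part of either list in the SAT1 differences between pigs was not tested.

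The other lists gave smaller r with SAT1, and their sums overlapped between the groups. The r was 0.53 for early response and stress genes, led by ATF3 (exact permutation p = 0.0999), 0.51 for red blood cells, led by HBB, and -0.56 for endothelium, led by PECAM1 and with EGFL7 at 0 in every pig (exact permutation p = 0.0509), n = 12 pigs. It was 0.15 for macrophages (CD163), 0.10 for lymphocytes (CD2), 0.07 for adipocytes (LPL) and -0.05 for fibro-adipogenic stromal cells (COL3A1). By the mean of log2 CPM the r was 0.30 for adipocytes and 0.38 for lymphocytes. The adipocyte sum was 170 to 307 CPM in high IMF, with a median of 225, and 133 to 367 in low IMF, with a median of 266. LPL had the highest counts in this sum, with means of 19626 in high and 23865 in low IMF. The markers did not all lie the same way. ADIPOQ, FABP4 and PPARG were nominally higher in high IMF, with log2FC of -0.15, -0.04 and -0.31. LEP, PLIN1, CIDEC, LPL, CFD and LIPE were nominally higher in low IMF. None had an unadjusted edgeR p of 0.05 or less, so the markers gave no group difference in fat cells either way.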

How the data were processed

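RNA of 12 pigs was sequenced as paired reads of stranded libraries. The authors trimmed, aligned (HISAT2) and assembled the reads with StringTie and counted them per gene with HTSeq, and the deposited values are raw counts per Ensembl gene. The annotation release and the strand setting of the counting are not given in the sources used here. Lanes and slaughter days are not given per pig in the labels. Groups came from the labels, and the pigs were unrelated animals.

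Genes kept by filterByExpr, 14262 of 25880, were scaled by TMM and the groups compared by edgeR's quasi-likelihood test (edgeR 4.0.16, R 4.3.3) without covariates, with Benjamini-Hochberg adjustment over all genes. Calls needed an adjusted p of 0.05 or less and a log2FC of 0.58 or more in size. Alternatives were DESeq2 1.42.0, limma 3.58.1, other normalizations and count filters, leaving out single pigs, and covariates (labelled sex, labelled age, presence of Y chromosome counts). Log2 CPM had a prior count of 2. Correlations used deviations from group means, with two-sided exact permutation within groups (518400 arrangements, or 720 within 1 group). Symbols came from an Ensembl name table, and positions and sequences from RefSeq on Sscrofa11.1, matched by symbol. No pair of pigs in a group agreed within counting error (chi-square per degree of freedom of at least 168). The members and gene lists were chosen with earlier results of these data known. The genes named are the members, the pathway genes with the 4 smallest p in each direction, the 10 highest and 5 lowest r with SAT1, the leading marker of each list (3 where the list's p was at or under 0.05) and the Y chromosome genes.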

Additional observations from a re-analysis of the deposited data

Results flagged for a closer look

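OAZ2 in pig 11 of the low IMF group, at 9754 normalized counts, stood apart from the other 5 low IMF pigs, since its gap to the next pig was 0.627 of the group's range, just past Dixon's critical value for 6 pigs. It was the only such value in the 16 sets examined (8 members in 2 groups), and chance flags about 1 set in 20. Without pig 11 the log2FC of OAZ2 was -0.11 with an SE of 0.11 in edgeR, against -0.04 with it.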

How the results depend on the processing

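Over all settings tried, those added for the pathway list after seeing the data included, 0 of the 7 members other than SAT1 and 0 of the 28 pathway genes were called, and SAT1 kept its direction, with a log2FC of -1.48 to -1.15 over all of them. The number of genes called in the whole table was 0 with edgeR and limma, 58 with DESeq2's Wald test on the same genes and 65 with DESeq2 on all genes. With each pig left out it was 0 to 1 in edgeR, 1 without pig 5 or pig 10, and 43 to 183 in DESeq2, 183 without pig 2. Of the 7 members, 0 to 1 had an unadjusted p of 0.05 or less with a pig left out, which was ODC1 without pig 3 in either tool.

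The log2FC near 0 changed sign. SAT2 was -0.022 with limma-voom, -0.12 with labelled age as a covariate and -0.10 in the 6 pigs whose Y chromosome counts fitted the labelled sex, where OAZ2 was 0.20. With each pig left out, SAT2 ran from -0.11 to 0.19, SMS from -0.10 to 0.14, SMOX from -0.14 to 0.0044 and OAZ2 from -0.11 to 0.019 over edgeR and DESeq2.

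The r of SAT1 changed sign with the presence of Y chromosome counts removed for SAT2 (0.0208) and SMOX (-0.0339), and with labelled age removed, a setting chosen after seeing the data, for SMOX (-0.00234) and OAZ1 (0.0743). In the 6 pigs that fitted their labelled sex, also chosen after seeing the data, it changed sign for SMOX (-0.34) and OAZ1 (0.166). With each pig left out it ran from -0.439 to 0.0687 for SAT2, from -0.159 to 0.205 for SMOX and from -0.181 to 0.228 for OAZ1, while that of ODC1 stayed between 0.499 and 0.82 and that of AZIN1 between 0.421 and 0.691. That of the marker sums ran from -0.0583 to 0.24 for adipocytes, from -0.378 to 0.607 for macrophages, from -0.00102 to 0.693 for red blood cells, from -0.165 to 0.46 for lymphocytes and from -0.177 to 0.133 for fibro-adipogenic cells, for which the mean of log2 CPM gave 0.0861. The lowest of each came without pig 6, and the highest without pig 7 for macrophages, red blood cells and lymphocytes.

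Per kb of coding sequence, also chosen after seeing the data, 5 of the 8 members kept their place in the order of levels. In the pathway list 2 genes instead of 1 were higher in high IMF with limma-voom or with labelled age or the presence of Y chromosome counts as a covariate, and 2 instead of 1 in low IMF with labelled sex. DESeq2 put 3 pathway genes higher in high IMF at an unadjusted p of 0.05 or less, both with the filter on low counts and without it (without it OAT, EIF5A2 and MAT2A). Leaving out each pig gave 1 to 3 there, in edgeR 3 without pig 1 and 2 without pig 2, 4, 8, 9 or 11, and 1 to 2 higher in low IMF, 2 without pig 1 and, in DESeq2, without pig 8. The cause of these changes was not tested. With 6 pigs a group the spread between pigs, more than the depth, limits the differences that can be detected. No paired analysis was possible because the pigs are different animals and share no number between groups.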
